A study of Rattus norvegicus with 4 samples.

Results

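The barcodes described here come from nuclei of rat fat, met a rule for fibroblasts and held no transcript of Pi16, Dpp4, Sema3c or Cd55. They were chosen by their own counts. A barcode was taken if it held at least 500 detected genes, at least 3 unique molecular identifiers (UMIs, the counted RNA molecules) and at least 2 genes of a fibroblast list, at most 1 UMI over 9 genes of other lineages (Cyyr1, Ptprb, Flt1, Ptprc, Mrc1, Myh11, Msln, Upk3b and Cdh19), and 0 UMIs over Pi16, Dpp4, Sema3c and Cd55. The fibroblast list was Pdgfra, Dcn, Col1a1, Col3a1 and Lama2. Its sixth gene, Col1a2, matched no symbol and was not used here. The rule took 3399 of 4762 fibroblast barcodes, of 116661 barcodes with at least 500 genes and 125904 deposited barcodes. There were 978 and 451 members in replicates 1 and 2 of the fat around the thoracic aorta (thoracic aorta perivascular adipose tissue, taPVAT), and 1257 and 713 in replicates 1 and 2 of subscapular brown adipose tissue (BAT).

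All 4 libraries came from untreated (naïve) male Dahl SS rats of the strain SS/HsdMcwiCrl aged 16 weeks and housed at 22 °C. There were 2 rats for each tissue, and no group carried a treatment or an engineered allele. Nuclear RNA of snap-frozen tissue was counted by droplet-based sequencing. The labels do not say whether 1 rat gave both tissues. Fewer nuclei of a kind and less RNA per nucleus cannot be told apart in sums over barcodes, but numbers of members and levels within them are given separately here.

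Fibroblasts make and remodel the collagen, elastic fibres and proteoglycans between other cells, and in fat some of them give rise to adipocytes. Cells with Pi16 and Dpp4 are known as a progenitor-like fibroblast pool of the connective tissue that borders fat and vessels. Fibroblasts without them include the preadipocytes that lie among the adipocytes. Matricellular proteins are secreted into the matrix and act on cells rather than bearing load.

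Members carried the genes of the rule, which is no finding. Lama2 was detected in 91.4% and 92.2% of members in taPVAT and in 92.5% and 88.5% in BAT, Col3a1 in 79.4% and 84.9% against 84.8% and 86.3%, and Pdgfra in 20.2% and 19.5% against 18.9% and 13.6%. In adipocyte barcodes of the same libraries, defined by at least 3 UMIs and 2 genes of Plin1, Adipoq, Cidec, Lipe and Plin4 with at most 1 UMI of the fibroblast list, Lama2 was detected in 1.86% to 2.95%. Of a list of further mesenchymal genes that the rule did not use, 20 of 20 matched genes were detected in each library. Detection in sums of this size does not tell cell types apart, since 9 of 9 matched vascular endothelial markers were also detected in each. The summed level of the mesenchymal genes was 177% and 225% of that in adipocyte barcodes in taPVAT and 209% and 180% in BAT. Among them Bicc1 measured 291 and 459 UMIs per 1e6 UMIs of the members (CPM) in taPVAT and 344 and 185 CPM in BAT.

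The same barcodes also held adipocyte RNA. Only 5.32% and 19.7% of members in taPVAT and 4.53% and 10.8% in BAT lacked every UMI of Plin1, Adipoq, Cidec, Lipe and Plin4. The summed level of 15 adipocyte markers reached 74.8% and 51.0% of the level in adipocyte barcodes in taPVAT and 71.2% and 69.3% in BAT. Whether single barcodes hold fibroblast nuclei with adipocyte RNA, adipocyte nuclei with fibroblast RNA or both was not tested, nor was the part of adipocyte RNA in the levels below. Of the other lists, 8 matched Schwann markers summed to 388% and 992% of the level in adipocyte barcodes in taPVAT and 489% and 417% in BAT. The 11 mural markers summed to 150% and 170% in taPVAT and 137% and 130% in BAT. The 6 matched mesothelial markers summed to 988% and 5194% of the adipocyte sum in taPVAT and 57.3% and 131% in BAT, where the sums themselves were below 1 CPM. The vascular endothelial markers measured 82.3 and 71.3 CPM in taPVAT against 62.8 and 105 CPM in BAT.

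Members had a median of 2502.5 and 2206 UMIs in taPVAT and 2548 and 2122 in BAT, below the 3283.5, 4986, 4086 and 2939.5 of adipocyte barcodes in the same order. The summed UMIs behind each library's levels were 3342292 and 1388863 in taPVAT and 4936045 and 2176783 in BAT. The median share of mitochondrial UMIs in members was 9.87% and 14.3% in taPVAT and 11.2% and 14.9% in BAT. Among all deposited barcodes, 1563 barcode sequences occurred in more than 1 library. Of the 3399 members, 88 had such a barcode, 26, 13, 32 and 17 per library, and 2 sequences marked members in 2 libraries.

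The share of fibroblast barcodes that met the rule is a description, since it rests on the same 4 genes. Of the fibroblast barcodes, 58.2% (Wilson 95% interval 55.8% to 60.6%) and 62.2% (58.6% to 65.7%) lacked all 4 in taPVAT, and 85.5% (83.6% to 87.2%) and 80.4% (77.6% to 82.9%) in BAT. The intervals cover counting error only. Both taPVAT libraries lay below both BAT libraries, at 60.2% ± 2.82 against 82.9% ± 3.63 (SD, n = 2), a difference of -22.7 percentage points (exact two-sided permutation p = 0.333, the smallest that 2 against 2 libraries allow, and 0.5 after adjustment over 3 shares tested, the third being the share after thinning). After each nucleus was thinned to 1000 UMIs, which left out 63, 7, 30 and 22 shallower fibroblasts, the share was 73.8% and 71.6% in taPVAT and 91.2% and 88.6% in BAT.

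**Figure D1:**
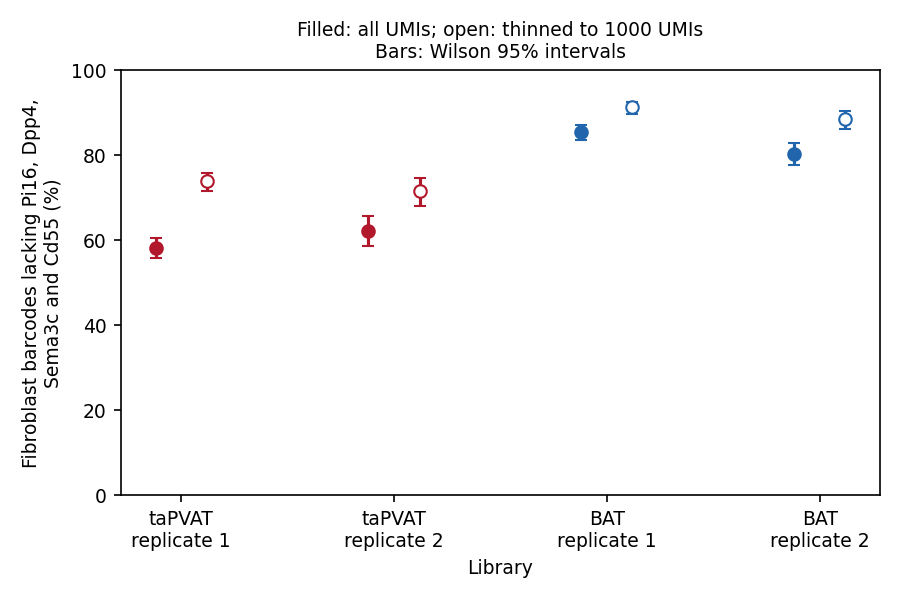
Share of fibroblast barcodes (%, y axis) without a UMI of Pi16, Dpp4, Sema3c or Cd55 in each library (x axis), from all UMIs (filled) and after thinning to 1000 UMIs (open), with Wilson 95% intervals. The taPVAT libraries sit at 58.2% and 62.2% and the BAT libraries at 85.5% and 80.4%, and thinning raises each share without bringing the tissues into overlap.

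Absence of a UMI is not absence of the gene. Pi16 was detected in 24.8% and 25.4% of fibroblast barcodes in taPVAT and in 7.35% and 5.86% in BAT, and in adipocyte barcodes in 5.06%, 5.72%, 1.87% and 1.27% in the same order. Sema3c was detected in 29.2% and 27.7% of fibroblast barcodes in taPVAT and in 9.80% and 13.6% in BAT. Just outside the rule, 240, 77, 96 and 96 fibroblasts held exactly 1 UMI of the 4 genes. At the other threshold, 208, 51, 159 and 116 members held exactly 3 UMIs of the fibroblast list, and 551, 172, 444 and 364 barcodes that met the remaining conditions held 2. As a share of all barcodes with at least 500 genes, members made up 2.28% and 3.66% in taPVAT and 3.64% and 2.66% in BAT, so that the tissues overlapped (difference -0.184 percentage points, exact two-sided permutation p = 1, n = 2 per tissue).

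The members' genes were then compared between the tissues on UMI sums per library. The edgeR quasi-likelihood test called 0 of 10574 genes (0%) at an adjusted p of 0.05, and the smallest adjusted p was 0.0766. At an unadjusted p of 0.05 or less stood 280 genes (2.65%), of which 216 (2.04%) were higher and 64 (0.605%) lower in taPVAT. DESeq2 called 23 of 18018 genes (0.128%) on the same sums. For 22.4% of genes both libraries of one tissue lay above both of the other, with taPVAT higher for 11.8% and BAT higher for 10.6%. The median log2 fold change of all genes, taPVAT over BAT, was -0.01. Differences below are therefore given as levels per library with the fitted change and its standard error, and none of them passed the edgeR threshold.

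Of 118 matrix genes that could be tested, 13 had an unadjusted p of 0.05 or less with taPVAT higher (11.02%, against 2.04% of all genes). With BAT higher, 2 of the 118 had such a p, against 0.605% of all genes. Of the same genes, 25.4% were higher in both taPVAT libraries than in both BAT libraries, against 11.8% of all genes, and 6.78% were lower, against 10.6%. Their median log2 fold change was 0.12. DESeq2 called 4 of them. Its share over all genes, 0.128% of 18018, includes genes that the edgeR filter on low counts left out, so it is not a like comparison. The matrix genes were chosen with earlier results of these data known.

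Markers of other cell types were compared in the same way, and edgeR called none in any of these lists. Of 9 tested mural markers, which mark pericytes and smooth muscle, 3 had an unadjusted p of 0.05 or less, all with taPVAT higher, against 2.04% of all genes. These were Rgs5, Kcnj8 and Abcc9, and Rgs5 measured 36.2 and 24.5 CPM in taPVAT and 9.12 and 9.65 CPM in BAT. The mural sum was 940 and 984 against 810 and 681 CPM, with 4 markers higher and 0 lower without overlap, against 11.8% and 10.6% of all genes, while Acta2 stayed at 1.44 to 3.22 CPM in all 4 libraries. The 14 tested adipocyte markers had a median log2 fold change of -0.41, with 0 at an unadjusted p of 0.05 or less and 0 higher and 3 lower (21.4%) in taPVAT without overlap. Of 7 tested vascular endothelial markers, 3 were higher and 1 lower without overlap. Of these 7, Rapgef4 alone had an unadjusted p of 0.05 or less, with BAT higher (14.3%, against 0.605% of all genes). Of 4 lymphatic endothelial markers 1 had such a p, with taPVAT higher, and of 4 myeloid markers 2 were higher and 1 lower without overlap and 0 had such a p. The part of these cells in the matrix values was not tested.

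Among the collagen chains, 24 of 38 matched genes could be tested. Col8a1 and Col14a1 had an unadjusted p of 0.05 or less, both with taPVAT higher (8.33%, against 2.04% of all genes). Without overlap of the libraries, 6 chains were higher (25%, against 11.8% of all genes) and 2 lower (8.33%, against 10.6%) in taPVAT. Col8a1 encodes a short-chain collagen of vessel walls and basement membranes. It measured 72.4 and 26.6 CPM in taPVAT and 5.88 and 6.43 CPM in BAT, from 242, 37, 29 and 14 UMIs. Both taPVAT libraries were higher, and they differed from each other more than the BAT libraries did. A UMI of Col8a1 was present in 6.24% and 2.00% of members in taPVAT and in 1.67% and 1.54% in BAT. The level in taPVAT replicate 2 came from 9 members, a share near that of BAT. The log2 fold change was 3.02 ± 0.53 (SE; edgeR adjusted p = 0.426, DESeq2 adjusted p = 0.000788), and it ranged from 2.11 to 3.54 over the alternatives run. Col14a1, a collagen found on the surface of fibrils, measured 38.0 and 56.2 CPM against 23.1 and 22.1 CPM, a log2 fold change of 1.03 ± 0.34 (edgeR adjusted p = 1).

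Of the other chains without overlap, Col4a5, Col6a5, Col8a2 and Col11a2 were higher and Col18a1 and Col20a1 lower in taPVAT, with log2 fold changes from -0.82 for Col20a1 to 0.98 for Col8a2. Col4a5, a basement membrane chain, measured 41.0 and 58.3 CPM in taPVAT and 21.7 and 33.1 CPM in BAT (log2 fold change 0.83 ± 0.38, edgeR adjusted p = 1). The chains with the highest levels overlapped. Col4a1, a basement membrane chain, measured 1173 and 4195 CPM in taPVAT and 2018 and 3064 CPM in BAT, so that both the highest and the lowest value came from taPVAT. Col6a2, a chain of microfibrillar collagen, measured 325 and 1035 against 506 and 678 CPM. Col5a3 followed the same pattern at 479 and 1310 against 925 and 1013 CPM. In all 3 genes, replicate 2 exceeded replicate 1 in both tissues.

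Of the 20 tested genes that process and cross-link collagen, 1 was higher and 1 lower in taPVAT at an unadjusted p of 0.05 or less (5% each, against 2.04% and 0.605% of all genes). Plod2, the lysyl hydroxylase that modifies collagen telopeptides for stable cross-links, measured 78.1 and 67.0 CPM in taPVAT and 5.47 and 3.22 CPM in BAT, from 261, 93, 27 and 7 UMIs. The values of the tissues were far apart and the replicates close together. The log2 fold change was 3.98 ± 0.37 (edgeR adjusted p = 0.0766, DESeq2 adjusted p = 6.5e-10), and it stayed between 3.64 and 4.40 over 17 alternatives. With all 4 libraries kept, Plod2 was called by DESeq2, without the filter on low counts and with the replicate number as a block. It was also called with at least 5 UMIs and 3 genes of the fibroblast list. The other alternatives that kept all 4 libraries did not call it. A UMI of Plod2 was present in 17.8% and 14.2% of members in taPVAT and in 1.83% and 0.982% in BAT, against 1.16%, 0.671%, 0.251% and 0.371% of adipocyte barcodes.

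The levels of the related hydroxylases overlapped between the tissues. Plod1 measured 47.6 and 56.2 CPM in taPVAT and 47.8 and 45.9 CPM in BAT, and Plod3 measured 12.3 and 12.96 against 10.5 and 12.4 CPM. Whether Plod2 differs from them in its tissue change was not tested. Adamts14, a procollagen N-propeptidase, was lower in taPVAT, at 58.3 and 66.2 CPM against 179 and 71.7 CPM (log2 fold change -1.02 ± 0.43, edgeR adjusted p = 1), and the change was -0.28 without BAT replicate 1, which held the high value. The lysyl oxidase Lox measured 4.79 and 2.16 against 5.06 and 5.05 CPM.

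The stretches before the start of Plod2 and of Col8a1 are shown because these are the collagen genes with the largest fitted tissue changes. They were taken from RefSeq in the build GRCr8, not from the study's files, and cover the 250 bases before the annotated start, at chr8:101964068-101964317 and chr11:56246532-56246781, both on the plus strand. Capitals mark matches, on either strand, to ACGTG, the core of the hypoxia response element, and to GGGCGG, the GC box. The letters TATAAA of the TATA box were searched too, as were CCAAT of the CCAAT box and GGAATG, the core that TEAD factors bind. Matches to 2 motifs that overlap are capitalised together.
Plod2: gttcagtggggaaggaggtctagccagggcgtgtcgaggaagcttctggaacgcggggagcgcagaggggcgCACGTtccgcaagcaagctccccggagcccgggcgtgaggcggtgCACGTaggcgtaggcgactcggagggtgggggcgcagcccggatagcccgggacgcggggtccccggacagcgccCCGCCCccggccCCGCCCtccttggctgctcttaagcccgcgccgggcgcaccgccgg
Col8a1: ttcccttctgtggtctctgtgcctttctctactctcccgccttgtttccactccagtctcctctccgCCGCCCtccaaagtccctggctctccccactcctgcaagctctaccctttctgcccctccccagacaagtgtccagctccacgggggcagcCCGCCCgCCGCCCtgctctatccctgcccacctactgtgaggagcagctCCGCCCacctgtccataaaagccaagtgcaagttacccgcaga
Plod2 held 2 matches to ACGTG and 2 to GGGCGG, and Col8a1 held 4 to GGGCGG. Of 33469 rat promoters of the same length, 16.57% held ACGTG, 30.47% GGGCGG, 12.93% TATAAA, 34.02% CCAAT and 12.06% GGAATG. These matches are a description of the letters and no measurement of binding.

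The elastic fibre list had 16 tested genes, of which 4 were higher (25%, against 11.8% of all genes) and 1 lower (6.25%, against 10.6%) in taPVAT without overlap, and a median log2 fold change of 0.40. Eln, which encodes elastin, measured 127 and 49.7 CPM in taPVAT and 27.8 and 46.4 CPM in BAT. The tissues did not overlap, but taPVAT replicate 2 and BAT replicate 2 were close together. The log2 fold change was 1.24 ± 0.51 (edgeR adjusted p = 1), from 0.41 without taPVAT replicate 1 to 1.84 over the alternatives. Fbn1, the main fibrillin of microfibrils, measured 410 and 580 against 320 and 291 CPM (log2 fold change 0.68 ± 0.32, edgeR adjusted p = 1, and 0.40 without taPVAT replicate 2). Ltbp1, which holds latent TGF-beta in the matrix, was lower in taPVAT, at 88.0 and 130 CPM against 156 and 304 CPM (log2 fold change -1.12 ± 0.43, edgeR adjusted p = 1, and -0.50 without BAT replicate 2).

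Among the basement membrane and adhesive glycoproteins, 4 of 18 tested genes had an unadjusted p of 0.05 or less, all with taPVAT higher (22.2%, against 2.04% of all genes). These were Slit2, Slit3, Ntn1 and Hmcn1, and the first 3 encode secreted guidance ligands. Slit2 measured 180 and 248 CPM in taPVAT and 17.4 and 15.2 CPM in BAT, from 600, 344, 86 and 33 UMIs. The log2 fold change was 3.68 ± 0.34 (edgeR adjusted p = 0.0766, DESeq2 adjusted p = 1.6e-13), with a range of 3.11 to 4.49 over 17 alternatives. With all 4 libraries kept, Slit2 was called by DESeq2, without the filter on low counts and with the replicate block. It was also called with at least 5 UMIs and 3 genes of the fibroblast list and with at most 1 UMI of the adipocyte genes. The other alternatives that kept all 4 libraries did not call it. Slit3 measured 136 and 111 against 75.8 and 64.8 CPM (log2 fold change 0.79 ± 0.28, edgeR adjusted p = 1), and Ntn1 measured 43.4 and 34.6 against 16.8 and 21.1 CPM (log2 fold change 1.03 ± 0.34, edgeR adjusted p = 1). Hmcn1, a hemicentin, measured 11.4 and 8.64 against 3.44 and 4.13 CPM (log2 fold change 1.42 ± 0.47, edgeR adjusted p = 1).

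Slit2 was also present in adipocyte barcodes, at 72.8 and 63.8 CPM in taPVAT and 16.6 and 16.8 CPM in BAT. The members' level was thus 246% and 388% of that of adipocytes in taPVAT, and 105% and 90.3% in BAT. The members with at most 1 UMI of the 5 adipocyte genes were an alternative added after the data were seen. There the log2 fold change of Slit2 was 4.49 (edgeR adjusted p = 0.0162). It rested on 82 and 145 UMIs summed over 160 and 206 members of taPVAT. In BAT it rested on 5 and 3 UMIs summed over 162 and 191 members. Slit2 was the only gene called in that subset. Robo1, a receptor for Slit ligands, went the other way, at 10.2 and 14.4 CPM in taPVAT and 57.9 and 88.2 CPM in BAT (log2 fold change -2.63 ± 0.40, edgeR adjusted p = 0.389, DESeq2 adjusted p = 0.000278). Robo1 was singled out after its values were seen.

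The laminins were closer together. Lama4 measured 1226 and 1333 CPM in taPVAT and 1220.0 and 1223 CPM in BAT, and Lamc1 measured 631 and 960 against 732 and 734 CPM. Fn1, fibronectin, measured 24.8 and 23.8 against 17.8 and 43.6 CPM. The BAT values of Fn1 enclosed both taPVAT values.

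Of 12 tested proteoglycan genes, 4 had an unadjusted p of 0.05 or less, all with taPVAT higher (33.3%, against 2.04% of all genes). Gpc3, a membrane-bound glypican that binds growth factors, measured 23.6 and 46.1 CPM in taPVAT and 3.44 and 6.89 CPM in BAT (log2 fold change 2.77 ± 0.55, edgeR adjusted p = 0.558, DESeq2 adjusted p = 0.0106). The other 3 are small leucine-rich proteoglycans that bind collagen fibrils. Bgn measured 20.05 and 24.5 against 11.3 and 10.1 CPM (log2 fold change 1.01 ± 0.36), Lum 16.8 and 38.2 against 10.7 and 11.03 CPM (1.28 ± 0.48), and Aspn 5.39 and 5.04 against 1.42 and 1.38 CPM (1.86 ± 0.58), each with an edgeR adjusted p of 1. Without taPVAT replicate 2 the change of Lum was 0.60. The related glypican Gpc6 measured 306 and 356 against 345 and 288 CPM and overlapped.

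Of 28 tested genes of matrix remodelling, Timp4 alone had an unadjusted p of 0.05 or less (3.57%, against 2.04% of all genes with taPVAT higher). It measured 16.5 and 16.6 CPM in taPVAT and 3.24 and 6.89 CPM in BAT (log2 fold change 1.75 ± 0.51, edgeR adjusted p = 1). Timp4 encodes an inhibitor of matrix metalloproteinases. Without overlap of the libraries, 7 genes were higher (25%, against 11.8% of all genes) and 2 lower (7.14%, against 10.6%) in taPVAT. The gelatinase gene Mmp2 measured 52.1 and 52.6 against 66.0 and 31.7 CPM, and Fap, a serine protease of activated fibroblasts, 115 and 168 against 177 and 88.7 CPM. In both, the BAT values lay on either side of the taPVAT values.

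**Figure D2:**
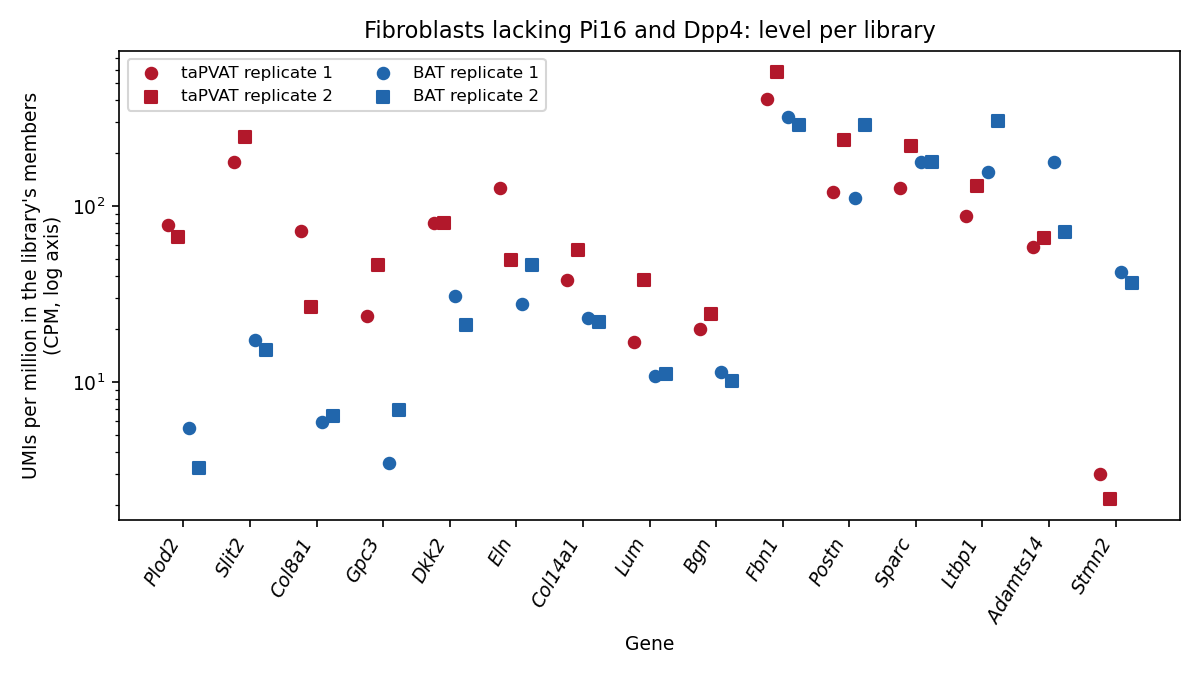
Level of 15 genes in fibroblasts lacking Pi16 and Dpp4 (CPM, log axis) in each library, red for taPVAT and blue for BAT, circles for replicate 1 and squares for replicate 2. Plod2 and Slit2 stand at 67.0 to 248 CPM in taPVAT and at 3.22 to 17.4 CPM in BAT, while Postn and Sparc overlap between the tissues.

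Of 19 tested matricellular genes of 35 matched, 0 had an unadjusted p of 0.05 or less by edgeR, where 2.65% of all genes did, and DESeq2 called 0. Without overlap of the libraries, 4 were higher in taPVAT (21.1%, against 11.8% of all genes) and 1 was lower (5.26%, against 10.6%), and the median log2 fold change was 0.00. Counts this small do not set the list apart from all genes. Postn, which encodes periostin, measured 121 and 238 CPM in taPVAT and 112 and 289 CPM in BAT. Sparc, which encodes osteonectin, measured 127 and 220 against 178 and 179 CPM. Smoc2, a relative of Sparc, measured 100 and 343 against 150 and 236 CPM, and Igfbp7 measured 294 and 669 against 252 and 399 CPM. In these 4 genes replicate 2 exceeded replicate 1 in both tissues.

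The smallest unadjusted p among them belonged to Mgp and Cilp. Mgp, an inhibitor of calcification, measured 61.0 and 137 CPM in taPVAT and 36.9 and 56.0 CPM in BAT (log2 fold change 1.06 ± 0.47, edgeR adjusted p = 1, and 0.36 without taPVAT replicate 2). Cilp measured 4.49 and 8.64 against 0.810 and 3.22 CPM (1.80 ± 0.81, edgeR adjusted p = 1), a change of 0.86 without BAT replicate 1 and 2.91 without BAT replicate 2. Ccn2, a growth factor-like protein also called CTGF, measured 19.7 and 9.36 against 1.62 and 10.1 CPM (1.47 ± 0.83, edgeR adjusted p = 1) and overlapped. Its change ranged from 0.49 to 3.21 over the alternatives, the latter without BAT replicate 2, where it was called (edgeR adjusted p = 0.0146).

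Thbs1, which encodes thrombospondin 1, was unevenly spread, with 0 and 7 UMIs in taPVAT and 1 and 58 in BAT. Its levels were 0 and 5.04 against 0.203 and 26.6 CPM, and the fitted log2 fold change of -2.85 had a standard error of 1.98 (edgeR adjusted p = 1). It ranged from -8.51 without taPVAT replicate 2 to -1.34 without taPVAT replicate 1, and 3 of 11 alternatives called it, namely those without taPVAT replicate 2, without BAT replicate 1 and without the filter on low counts (edgeR adjusted p = 0.0159, 7.7e-05 and 0.00355). Tnc had 1, 5, 7 and 12 UMIs and Comp 5, 2, 8 and 6, and neither passed the filter on low counts.

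Of 28 tested regulators of adipocyte formation, 0 had an unadjusted p of 0.05 or less by edgeR, where 2.65% of all genes did. Without overlap, 2 were higher and 2 lower in taPVAT (7.14% each, against 11.8% and 10.6% of all genes), and the median log2 fold change was -0.00. Pparg, the master regulator of adipogenesis, measured 2715 and 3385 CPM in taPVAT and 2368 and 4915 CPM in BAT. Its log2 fold change of -0.30 ± 0.48 (edgeR adjusted p = 1) became 0.39 without BAT replicate 2. Ebf2, a factor of brown precursors, measured 2557 and 2039 against 2123 and 1973 CPM, Prdm16 41.3 and 33.1 against 41.1 and 51.9 CPM, and Zfp423 255 and 218 against 206 and 254 CPM. Cebpa measured 15.9 and 15.1 against 21.1 and 18.4 CPM, with both BAT libraries higher. Zfp521, known as a brake on adipogenesis, had the smallest p of the list, at 292 and 460 against 225 and 223 CPM (log2 fold change 0.72 ± 0.34, edgeR adjusted p = 1, and 0.35 without taPVAT replicate 2).

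The regulators stood on both sides of their level in adipocyte barcodes. The 32 matched regulators summed to 89.4% and 68.5% of the adipocyte sum in taPVAT and 88.5% and 79.0% in BAT. In all 4 libraries 9 of the 28 tested exceeded the adipocyte level, against 3808 of all 10574 genes. Among the 9 were Zfp521, at 1876% and 2493% in taPVAT and 2399% and 629% in BAT, and Cebpd, an early factor of differentiation, at 1359% and 2295% against 1639% and 1265%. Pparg stood at 79.3% and 60.1% against 75.1% and 73.8%, near the 74.8%, 51.0%, 71.2% and 69.3% of the adipocyte marker sum. Among members with at most 1 UMI of the 5 adipocyte genes, Pparg stood at 34.9% and 31.1% in taPVAT and 30.7% and 35.1% in BAT, and Zfp521 at 4045% and 3773% against 5492% and 1077%.

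Of 36 tested genes of preadipocytes and of the signals that act on them, 4 had an unadjusted p of 0.05 or less, all with taPVAT higher (11.1%, against 2.04% of all genes). Without overlap, 12 were higher (33.3%, against 11.8% of all genes) and 4 lower (11.1%, against 10.6%). Dkk2, a secreted inhibitor of Wnt signalling, measured 79.9 and 80.6 CPM in taPVAT and 30.8 and 21.1 CPM in BAT (log2 fold change 1.60 ± 0.31, edgeR adjusted p = 0.539). Fgf1, a growth factor needed for fat remodelling, measured 91.6 and 92.2 against 47.0 and 51.5 CPM (0.88 ± 0.29), Tgfb3 11.4 and 8.64 against 3.24 and 3.68 CPM (1.55 ± 0.47), and Cd34 15.6 and 10.8 against 6.08 and 3.68 CPM (1.39 ± 0.45), each with an edgeR adjusted p of 1. Fgf1 was no higher in members than in adipocyte barcodes, at 66.3% to 95.9% of their level, unlike Dkk2 at 1227% or more.

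Of the preadipocyte markers, Icam1, F3 and Fgf10 overlapped between the tissues, unlike Cd34. Icam1, a marker of committed preadipocytes, measured 6.28 and 23.8 CPM in taPVAT and 5.06 and 16.1 CPM in BAT. F3, which marks a fibroblast subset that restrains adipogenesis, measured 119 and 276 against 163 and 355 CPM. Fgf10, a growth factor for preadipocytes, measured 102 and 56.9 against 204 and 45.9 CPM. Dlk1 had 0 UMIs in both taPVAT libraries, which allows up to 0.634 CPM, and 4 and 1 in BAT, and was not tested.

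**Figure D3:**
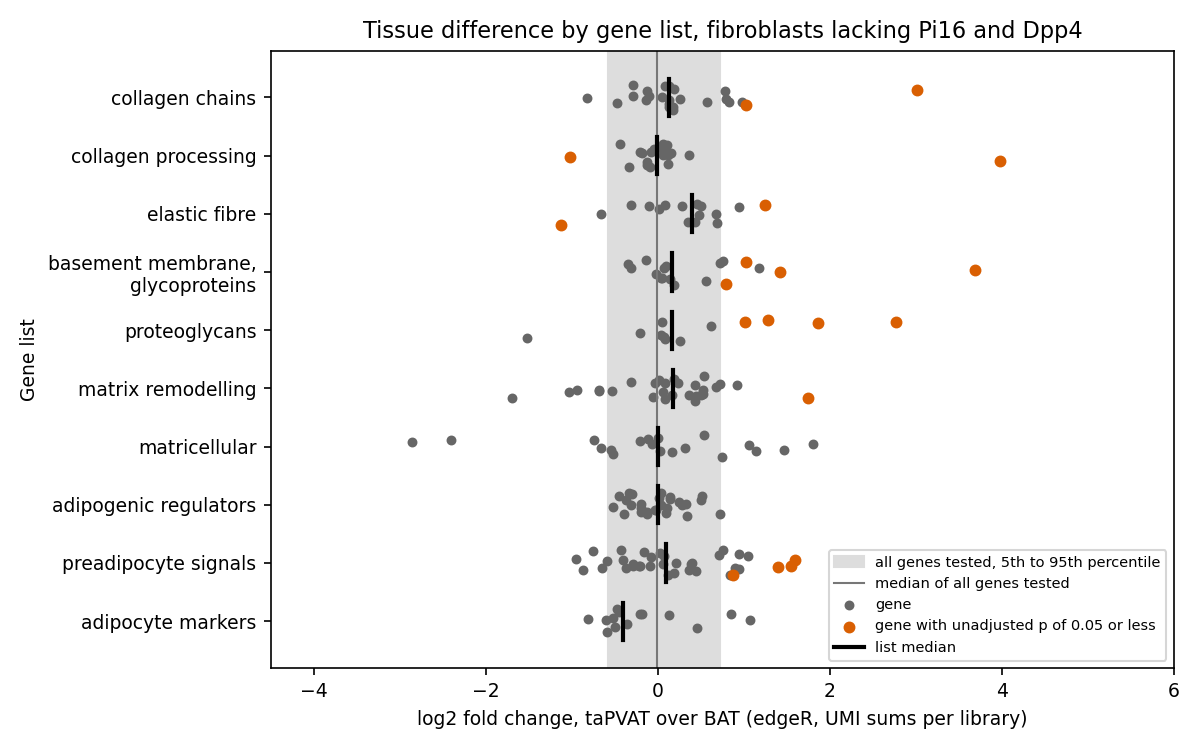
Log2 fold change of taPVAT over BAT (x axis) for each tested gene of 10 lists (y axis) in fibroblasts lacking Pi16 and Dpp4, with genes at an unadjusted p of 0.05 or less in orange, list medians as black bars and the 5th to 95th percentile of all 10574 genes, -0.59 to 0.73, in grey. The outlying genes on the right are Plod2 at 3.98, Slit2 at 3.68, Col8a1 at 3.02 and Gpc3 at 2.77, and the medians of the matrix, matricellular and adipogenic lists lie between -0.01 and 0.40.

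Some genes outside these lists had fitted differences of similar or larger size. Stmn2, a microtubule regulator best known from neurons, measured 2.99 and 2.16 CPM in taPVAT and 42.1 and 36.8 CPM in BAT (log2 fold change -3.88 ± 0.41, edgeR adjusted p = 0.0945, DESeq2 adjusted p = 8.2e-06), from 10, 3, 208 and 80 UMIs. Piezo2, a mechanosensitive ion channel, had 74 and 20 UMIs in taPVAT and 1 and 0 in BAT, that is 22.1 and 14.4 against 0.203 and 0 CPM. The ratio of the summed levels was 141 (exact 95% interval of the counts 24.8 to 5640), where this interval and those of the ratios below cover counting error only and rest on 1 UMI in BAT, or 5 for Eya4, and the edgeR adjusted p was 0.0945. The UMIs of Piezo2 came from 41 and 13 members in taPVAT, 4.19% and 2.88%, and from 0.218% and 0.119% of adipocyte barcodes there.

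Several regulators of transcription were singled out after their values were seen. Wt1, a factor of mesothelial and visceral mesenchymal lineages, measured 35.3 and 78.5 CPM in taPVAT and 0 and 0.459 CPM in BAT, a ratio of 341 (exact interval 60.6 to 13538, edgeR adjusted p = 0.0945). Eya1 measured 15.3 and 14.4 against 0.203 and 0 CPM, a ratio of 107 (18.5 to 4275, edgeR adjusted p = 0.0945), and Eya4 16.5 and 46.1 against 1.01 and 0 CPM, a ratio of 35.8 (14.9 to 112, edgeR adjusted p = 0.406). Foxp2 measured 566 and 472 against 133 and 71.7 CPM (log2 fold change 2.33 ± 0.37, edgeR adjusted p = 0.406). Tbx15, a T-box factor of subcutaneous and brown fat, was lower, at 24.8 and 38.9 against 186 and 149 CPM (-2.43 ± 0.35, edgeR adjusted p = 0.329). DESeq2 called all 5. Adipocyte barcodes also differed between the tissues in some of these genes. Eya1 measured 15.5 and 3.65 CPM there in taPVAT and 0.0874 and 0.122 CPM in BAT, so that the members' level was 98.5% and 395% of it in taPVAT. Foxp2 measured 510 and 273 against 61.9 and 23.9 CPM in adipocyte barcodes, and Tbx15 9.50 and 2.81 against 49.7 and 16.9 CPM. Wt1 and Eya4 were at 2.03 CPM or less there in each library.

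The enzymes Aldh1a2 and Aldh1a3, which make retinoic acid, were both higher in taPVAT and uneven between its replicates. Aldh1a2 measured 47.0 and 208 CPM in taPVAT and 14.99 and 11.5 CPM in BAT (log2 fold change 3.22 ± 0.70, edgeR adjusted p = 0.734, DESeq2 adjusted p = 0.000124). Aldh1a3 measured 19.7 and 77.8 against 6.28 and 6.43 CPM (2.88 ± 0.68, edgeR adjusted p = 0.813, DESeq2 adjusted p = 0.0079). The changes ranged from 1.79 to 3.95 and from 1.61 to 3.60 over the alternatives, the lowest both without taPVAT replicate 2. With all 4 libraries kept, only DESeq2 and the fit without the filter on low counts called them. In the fibroblasts with a UMI of Pi16, Dpp4, Sema3c or Cd55, Aldh1a2 measured 45.5 and 96.4 against 7.94 and 4.06 CPM (edgeR adjusted p = 0.0476). Aldh1a3 measured 40.2 and 73.4 against 20.4 and 8.13 CPM in them (edgeR adjusted p = 0.306). Wt1 is also a mesothelial marker. Of the 6 matched mesothelial markers, whose sum was 39.8 and 86.4 CPM in taPVAT and 0.405 and 0.919 CPM in BAT, Wt1 made up most in taPVAT. Krt18 and Krt19 were at 0 in the members, and Krt19 also in adipocyte barcodes of all 4 libraries. The rule itself limits Msln and Upk3b. The part of mesothelial nuclei in these values was not tested.

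Most matrix genes stood higher in the members than in adipocyte barcodes. The members were chosen for UMIs of fibroblast genes, collagens among them, and the adipocyte barcodes for at most 1 such UMI. A higher level in members was thus partly set by the rule, and this is a description. In all 4 libraries, 21 of 24 collagen chains, 16 of 20 collagen processing genes, 13 of 16 elastic fibre genes and 16 of 19 matricellular genes exceeded their level in adipocyte barcodes, against 3808 of 10574 genes. Smoc2 stood at 6144% and 24430% of the adipocyte level in taPVAT and 8335% and 14191% in BAT. Among the exceptions were Smoc1, at 50.6% to 69.7%, and Col7a1, at 34.2% to 67.3%, which were lower in members in all 4 libraries. Of 14 tested adipocyte markers, 0 exceeded the adipocyte level in all 4. Elastic fibre genes summed to 875 and 1074 CPM in members of taPVAT and 784 and 869 CPM in those of BAT. In the fibroblasts with a UMI of Pi16, Dpp4, Sema3c or Cd55 this sum was 2665, 4218, 2088 and 1926 CPM in the same order. The sums of collagen processing, basement membrane and proteoglycan genes were also higher there in each library. Those of collagen chains, matrix remodelling and matricellular genes were lower there.

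**Figure D4:**
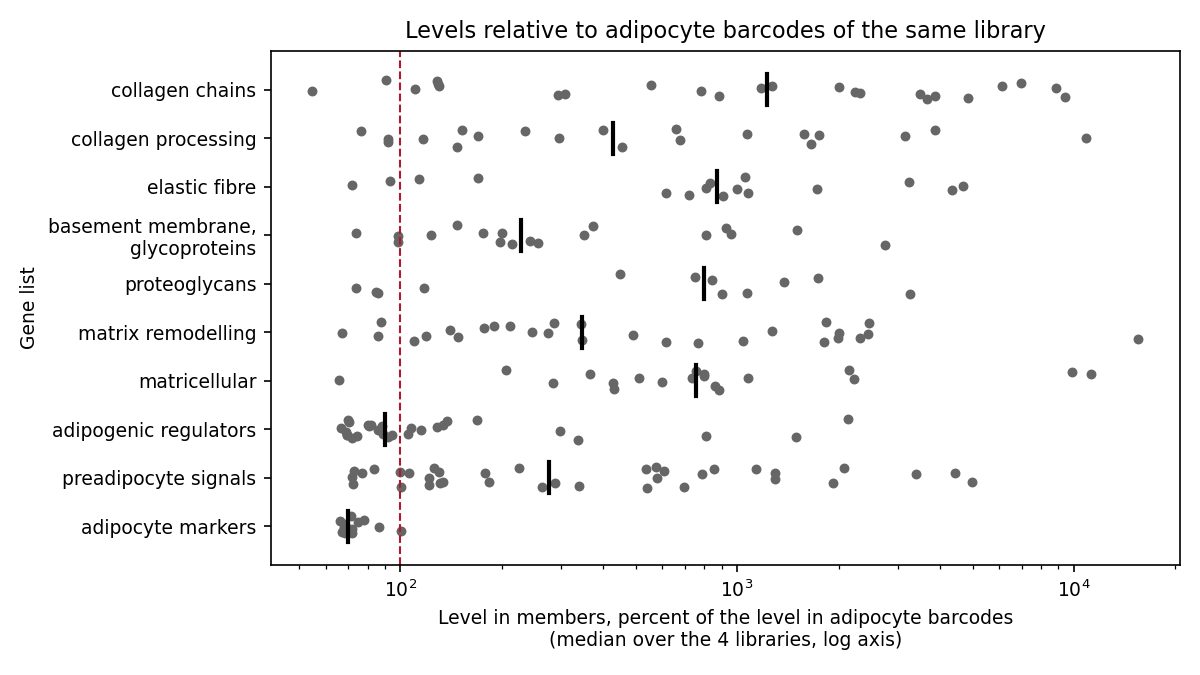
Level of each tested gene in fibroblasts lacking Pi16 and Dpp4 as percent of its level in adipocyte barcodes of the same library (x axis, median over the 4 libraries, log axis), by gene list (y axis), with list medians as black bars and 100% as a dashed line. The median stands at 1226% for collagen chains, 755% for matricellular genes, 276% for preadipocyte signals, 90.2% for adipogenic regulators and 70.0% for adipocyte markers.

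Within taPVAT some of the genes occurred in the same nuclei, which was looked for after their levels were seen. In taPVAT replicate 1, 61 members had a UMI of Col8a1. Of these, 42.6% also had a UMI of Eln, against 7.85% of members without Col8a1, 27.9% against 2.62% had Piezo2, and 23.0% against 4.80% had Gpc3. Foxp2 was detected in 86.9% against 63.7% and Wt1 in 6.56% against 9.60%. In taPVAT replicate 2 only 9 members had a UMI of Col8a1, and 3 of them had Eln, 3 Piezo2 and 3 Gpc3. In BAT, 2 of 21 members with Col8a1 in replicate 1 and 3 of 11 in replicate 2 had Eln. Whether this joint detection is particular to taPVAT or to the members was not tested. It was not looked for in the fibroblasts with a UMI of Pi16, Dpp4, Sema3c or Cd55. In taPVAT those had higher levels than the members of Col8a1, at 160 and 178 CPM, and of Piezo2, at 62.3 and 91.0 CPM. The members are not independent samples, and no test was made. Detection of a gene depends on the UMIs of a barcode. Depth was not matched between members with and without Col8a1, and doublets were kept.

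Plod2 showed less of this. Of 174 members with a UMI of Plod2 in taPVAT replicate 1, 4.60% had Piezo2, against 4.10% of the others, and 12.1% had Col8a1, against 4.98%. Eln was present in 14.9% against 8.96%. In taPVAT replicate 2, 0 of 64 members with Plod2 had Col8a1, 7 had Eln (10.9%, against 6.46% of the others) and 4 had Piezo2 (6.25%, against 2.33%).

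**Figure D5:**
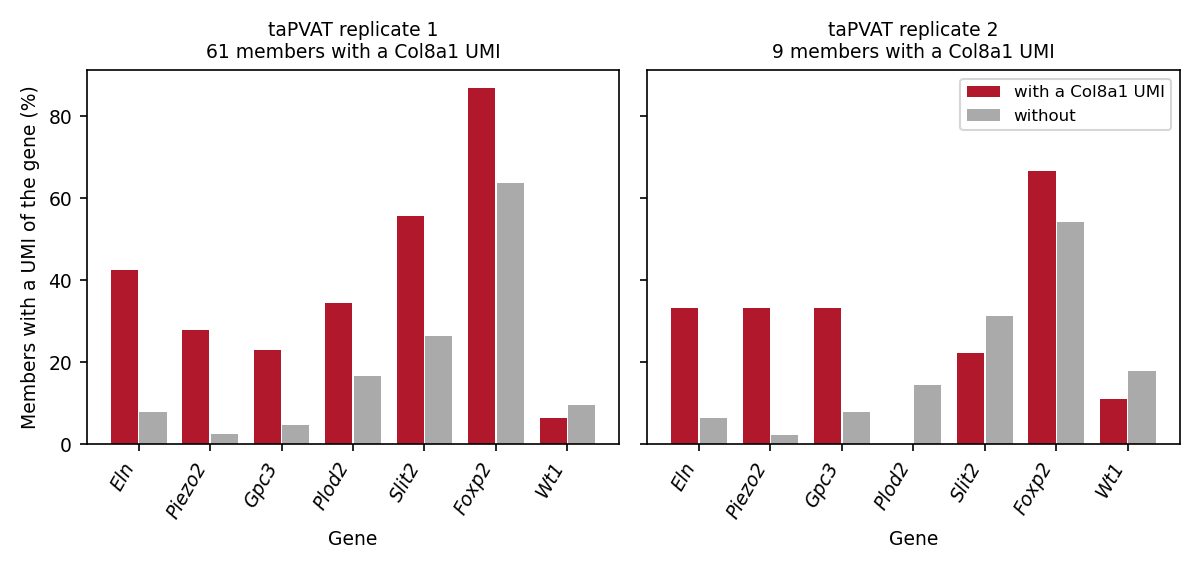
Share of members (%, y axis) with a UMI of 7 genes (x axis) among members with (red) and without (grey) a UMI of Col8a1, in taPVAT replicates 1 and 2. In replicate 1 Eln was found in 42.6% against 7.85% and Piezo2 in 27.9% against 2.62%, and replicate 2 holds only 9 members with Col8a1.

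The last comparison asked whether the tissue difference in the members differed from that in the 1363 fibroblasts with a UMI of Pi16, Dpp4, Sema3c or Cd55, of which there were 702, 274, 213 and 174 per library. The test of the difference, an edgeR interaction term with the library as a term, called 13 of 10446 genes (0.124%), 2 with a higher (0.0191%) and 11 with a lower (0.105%) taPVAT-to-BAT ratio in the members. Of the listed genes, Dkk2 and Rapgef4 were called. Dkk2 measured 153 and 170 CPM in taPVAT and 21.5 and 5.42 CPM in BAT in the fibroblasts with such a UMI, a log2 fold change of 3.51 ± 0.48 beside the 1.60 ± 0.31 of the members (interaction -1.89, edgeR adjusted p = 0.0296). Rapgef4, an exchange factor also listed among endothelial markers, measured 7.78 and 12.2 against 27.6 and 35.4 CPM in members and 24.6 and 44.9 against 13.6 and 14.9 CPM in the others (interaction -2.87, edgeR adjusted p = 0.00259). The interaction of Dkk2 was not called without taPVAT replicate 2 (edgeR adjusted p = 0.103), and DESeq2 called neither Dkk2 (adjusted p = 0.596) nor Rapgef4 (adjusted p = 0.360).

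Igfbp5, a secreted binding protein of insulin-like growth factors, had the smallest p of these tests. It measured 70.0 and 55.4 CPM in members of taPVAT, 695 and 130 CPM in members of BAT, and 300, 494, 557 and 206 CPM in the fibroblasts with a UMI of Pi16, Dpp4, Sema3c or Cd55 in the same order of libraries (interaction -2.46, edgeR adjusted p = 0.000752). It was called with each library left out in turn, with an edgeR adjusted p of at most 0.0055, and not by DESeq2 (adjusted p = 0.654).

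Of the 4 matrix genes with the largest fitted excess in taPVAT, Plod2, Slit2, Col8a1 and Gpc3, all were also higher in both taPVAT libraries of the fibroblasts with a UMI of Pi16, Dpp4, Sema3c or Cd55. There edgeR called 32 of 8264 genes (0.387%). Plod2 measured 121 and 178 CPM in taPVAT and 9.07 and 0 CPM in BAT in those fibroblasts. Slit2 measured 234 and 444 against 19.3 and 52.8 CPM, and Gpc3 90.6 and 126 against 11.3 and 19.0 CPM. Col8a1 measured 160 and 178 against 4.54 and 4.06 CPM there, a log2 fold change of 5.23 ± 0.40 (edgeR adjusted p = 0.00484). Plod2 and Gpc3 were also called there (edgeR adjusted p = 0.0288 and 0.0338), and Slit2 was not (edgeR adjusted p = 0.0607). The interaction was -0.77 for Plod2, 0.40 for Slit2, -0.15 for Gpc3 and -2.18 for Col8a1, with edgeR adjusted p of 1, 1, 1 and 0.581, so a difference between the kinds of fibroblast was not shown for these 4 genes. Piezo2, the ion channel, measured 62.3 and 91.0 against 2.27 and 0 CPM in the same fibroblasts and was called there (edgeR adjusted p = 0.0128). Its interaction was 1.11 (edgeR adjusted p = 1). Against adipocyte barcodes the same test called 1 of 15211 genes (0.00657%), Asic2, an acid-sensing ion channel with 73.9 and 31.7 CPM in taPVAT and 17.6 and 22.5 CPM in BAT in the members.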

How the data were processed

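The deposited matrices hold raw counts of UMIs per gene and barcode for 32883 genes, made with Cell Ranger 7.1.0 per the file headers. The genome build Rnor_6.0 is named in the submitters' processing notes. How introns were counted and which annotation was used was not given in the sources used here, and overlapping genes are uncertain. Each deposited barcode has at least 500 UMIs. Members were taken by the rule in the text, and their counts were summed per library. CPM here means UMIs per 1e6 UMIs of the set in that library.

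The sums were tested in R 4.3.3 by quasi-likelihood with edgeR 4.0.16 (TMM scaling, filterByExpr, Benjamini-Hochberg adjustment over all genes tested, threshold 0.05), with DESeq2 1.42.0 as an alternative. Interactions used a term for the library. The scripts were tested on simulated data. Shares were compared by an exact permutation test with Wilson 95% intervals. With 2 rats per tissue the p-values rest on the spread between 2 libraries. Doublets were kept in the values reported and left out in an alternative, where Scrublet (scanpy 1.11.5) called 4.94% to 10.6% of barcodes.

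Genes were named by a rule: up to 15 called genes in each direction, up to 4 genes with the smallest p and up to 4 with the highest mean CPM in each matrix, matricellular and adipogenic list, and a set of individual genes. Members, lists and named genes were chosen with earlier results of these data known. Of 412 listed symbols, 388 matched. Tnxb and Cd36 matched no symbol and were not analysed here. Promoter sequences are from RefSeq (GRCr8) and gave entries for Plod2 and Col8a1. Slit2 and Stmn2 were also looked up. Alternatives were other scaling, no filter, the replicate block, each library left out, stricter member rules, doublets, shared barcodes, a limit of 10% mitochondrial UMIs and 451 nuclei per library.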

Additional observations from a re-analysis of the deposited data

Results flagged for a closer look

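The tissue difference of 14 genes in fibroblasts lacking Pi16 and Dpp4 differed from that in another set of barcodes by the edgeR interaction test. Values are log2 differences between the 2 taPVAT-over-BAT ratios, negative where the ratio was lower in the members. Against fibroblasts with a UMI of Pi16, Dpp4, Sema3c or Cd55 they were -2.46 for Igfbp5, -2.87 for Rapgef4, -2.38 for Gpm6a, -1.93 for Cacna2d3, -3.98 for Gcnt2, -1.39 for Plxdc2, -1.70 for Filip1, -0.98 for Boc, -1.89 for Dkk2, -2.29 for Alcam and -3.02 for Ppp2r2b. They were 2.01 for Pde10a and 1.72 for Epha3.

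Gpm6a, a neuronal membrane glycoprotein, measured 183 and 81.4 CPM in members of taPVAT and 72.9 and 74.0 CPM in those of BAT, and 655, 798, 82.8 and 69.1 CPM in the fibroblasts with such a UMI. Its level in adipocyte barcodes was 222 and 178 CPM in taPVAT and 91.9 and 96.4 CPM in BAT, above that of the members. Gcnt2 measured 10.8 and 5.04 against 5.67 and 8.73 CPM in members, and 62.3 and 58.1 against 2.27 and 4.06 CPM in the other fibroblasts. Epha3, an ephrin receptor, measured 30.8 and 40.3 against 19.0 and 34.5 CPM in members, and 42.2 and 30.7 against 90.7 and 96.2 CPM in the others.

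All 13 kept their sign with each library left out and under DESeq2. Of the 13, 13 remained called without taPVAT replicate 1, 6 without taPVAT replicate 2, 6 without BAT replicate 1 and 12 without BAT replicate 2, and DESeq2 called 1 of them, Plxdc2 (adjusted p = 0.0306). Without taPVAT replicate 2 the edgeR adjusted p was 0.153 for Plxdc2, 0.103 for Pde10a, 0.253 for Boc, 0.103 for Dkk2, 0.0920 for Alcam, 0.103 for Ppp2r2b and 0.281 for Epha3. Without BAT replicate 1 it was 0.134 for Cacna2d3, 0.0519 for Gcnt2, 0.0913 for Plxdc2, 0.126 for Pde10a, 0.0721 for Boc, 0.166 for Alcam and 0.310 for Epha3. Without BAT replicate 2 it was 0.889 for Ppp2r2b.

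Against adipocyte barcodes 1 of 15211 genes (0.00657%) was called. Asic2, an acid-sensing ion channel, measured 73.9 and 31.7 CPM in taPVAT and 17.6 and 22.5 CPM in BAT in members, and 103 and 25.7 against 1.68 and 2.12 CPM in adipocyte barcodes (interaction -3.60, edgeR adjusted p = 0.00364). It was called with each library left out and by DESeq2.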

How the results depend on the processing

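With 2 libraries per tissue the calls depended on the fit. The tissue test in the members called 0 genes by edgeR, and 23 by DESeq2, 89 without the filter on low counts, 2 (Plod2 and Slit2) with at least 5 UMIs and 3 genes of the fibroblast list and 1 (Slit2) with at most 1 UMI of the adipocyte genes. Leaving out each library gave 9 to 55 calls, 9 without taPVAT replicate 1 and 55 without taPVAT replicate 2, where the lone library is assumed to vary like the others. The other 8 alternatives called 0. The count of interaction calls against fibroblasts with a UMI of Pi16, Dpp4, Sema3c or Cd55, 13, was 1 by DESeq2 and 7 to 65 with each library left out, and that against adipocyte barcodes, 1, was 5 by DESeq2 and 14 to 666. The 32 tissue calls in those fibroblasts became 84 to 164, an alternative added after the data were seen. The cause was not tested.

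The difference in the share of members among all barcodes, taPVAT minus BAT, was -0.184 percentage points. It was 0.430 with at most 1 UMI of the adipocyte genes, an alternative added after the data were seen. With the stricter fibroblast rule it was 0.0250, and with each library left out it ran from -0.874 to 0.506. The share lacking Pi16 and Dpp4 among fibroblasts, -22.7 percentage points, was -25.3 to -20.2 with each library left out and -17.2 after thinning. For 37 genes whose change is printed, 506 of 601 values under 17 settings kept direction and side of the threshold, 94 passed it and 1 turned, Pparg, which ran from -0.77 without BAT replicate 1 to 0.39 without BAT replicate 2. Among members with at most 1 UMI of the adipocyte genes the changes of Col14a1, Ntn1 and Slit3 were 0.29, 0.54 and 0.48. That of Bgn was 1.58 with the stricter fibroblast rule and that of Cd34 2.40 with at most 10% mitochondrial UMIs. Depth limits genes such as Thbs1, Tnc and Piezo2, which rest on few UMIs.

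The labels do not say that a replicate number pairs the tissues. Deviations of replicate 1 from the tissue mean were correlated between the tissues over 10574 genes (r = 0.51, with only 2 pairs and genes not independent). With the replicate block the tissue test called 16 genes, and the share of members among all barcodes differed by -1.36 percentage points within number 1 and 0.995 within number 2.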

Other observations

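In both tissues, replicate 2 had more RNA of many secreted matrix proteins in these nuclei than replicate 1. Of 19 tested matricellular genes, 13 were higher in replicate 2 of both tissues and 1 was higher in replicate 1 of both. Of 118 matrix genes the numbers were 45 and 20, against 3103 and 4132 of all 10574 genes. Timp3, an inhibitor of metalloproteinases, measured 1251 CPM in replicate 2 of taPVAT against 346 CPM in replicate 1, and 1666 against 843 CPM in BAT. Of 64 tested adipogenic genes, 17 were higher in replicate 2 of both tissues and 29 in replicate 1 of both. Between replicates 1 and 2 the collagen chain sum also rose in adipocyte barcodes. It went from 924 to 1756 CPM in taPVAT and from 802 to 1919 CPM in BAT. The matricellular sum fell there, from 530 to 418 and from 701 to 457 CPM. In the fibroblasts with a UMI of Pi16, Dpp4, Sema3c or Cd55 the collagen sum rose from 2513 to 5247 and from 3020 to 4126 CPM. Their matricellular sum rose in taPVAT and fell in BAT. Members of replicate 2 had the higher median share of mitochondrial UMIs, 14.3% and 14.9% against 9.87% and 11.2%. They also held a median of 2 and 3 UMIs of the 5 adipocyte genes, against 6 and 5. The part of both in these levels was not tested.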
